A study of Homo sapiens with 12 samples.

Results

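The transcriptional response of MV-4-11 cells to crenolanib alone was described from 6 of the 12 RNA sequencing libraries of the study, 3 labelled crenolanib and 3 labelled DMSO. They were taken as the 3 crenolanib and the 3 DMSO columns of the deposited expression table, and the other 6 libraries were used only to check how the fit depends on them. MV-4-11 is a human acute myeloid leukaemia line derived from bone marrow. It carries an internal tandem duplication in the receptor FLT3, which keeps the receptor active without its ligand, and a fusion of KMT2A. All libraries carry the genotype label WT, so no allele was altered on top of those of the line, as far as the labels say. The crenolanib cells were treated for 48 h. The labels give neither the time of the DMSO cells nor the dose of crenolanib. DMSO is the solvent in which such compounds are given. The labels number the libraries of a group without saying whether they came from separate cultures, so p-values cover the spread among these libraries alone, and that spread may be technical. The comparison asks how the RNA of cells given crenolanib, without a second compound, differed from that of DMSO cells.

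FLT3 is a receptor tyrosine kinase of blood progenitors. In leukaemia cells with the duplication it signals through STAT5, through the RAS-MAPK cascade and through PI3K and AKT, which keep growth genes on and hold FOXO factors out of the nucleus. Crenolanib occupies the ATP pocket of the active kinase and also blocks the related platelet-derived growth factor receptors. RNA is given in FPKM, which divides a gene's fragments by its length and by the library's total, so levels can be compared between genes. Changes are log2 differences of FPKM + 1 (crenolanib minus DMSO) with the standard error of the fit. A gene is said to have risen or fallen only where the adjusted p was below 0.05. In bulk RNA, more or fewer cells of a type and more or less RNA per cell cannot be told apart.

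The libraries of each group were close to each other and far from the other group. Estimated depth was 13580000 to 15980000 reads in DMSO and 10050000 to 10210000 reads with crenolanib, approximate because it was read from low FPKM values. Over the 10574 genes tested, whose values do not vary independently, libraries correlated at 0.996 to 0.997 within DMSO, 0.985 to 0.986 within crenolanib and 0.843 to 0.848 between the groups. The median SD of a gene was 0.07 log2 units in DMSO and 0.12 with crenolanib. The share of the FPKM sum taken by the 13 genes of the mitochondrial genome was 19.8 ± 0.209% in DMSO and 36.0 ± 0.119% with crenolanib (SD, n = 3). This difference of 16.2 percentage points had an exact two-sided permutation p of 0.1, the smallest that 3 against 3 libraries can give.

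Changes followed the base composition of the transcripts. Tested genes were placed in 5 groups of equal size by GC content. In the group with the lowest (31.3 to 41.3%), 75.4% rose and 6.10% fell, with a median difference of 0.62. In the group with the highest (59.0 to 76.8%), 13.7% rose and 67.1% fell, with a median of -0.52. The 3 crenolanib libraries lay 0.618 to 0.624 above the DMSO mean in the lowest group and at -0.536 to -0.505 against it in the highest, while the DMSO libraries stayed between -0.019 and 0.02 in both. List medians adjusted for GC content within each library are therefore given beside those as deposited, and so are the values of named genes that this adjustment moved by over 1.5 times. After that adjustment 7165 genes passed, of which 5378 had passed in the same direction before, and 395 genes had passed in the opposite direction. Of the 10574 genes tested 3208 then rose and 3957 fell, which is the background for list counts after GC adjustment. The part of base composition in any single result was not tested beyond this adjustment.

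**Figure D1:**
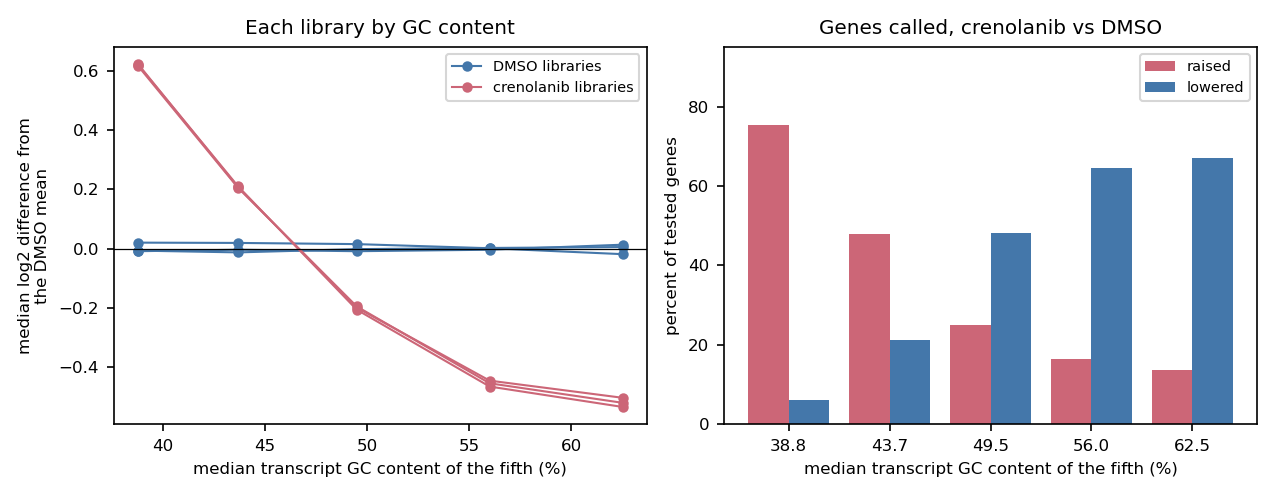
Left, the median log2 difference of each library from the DMSO mean (y axis, log2 units) in 5 groups of tested genes ordered by transcript GC content (x axis, percent). Right, the percent of each group that rose (red) or fell (blue). The 3 crenolanib lines lie on top of each other and fall from 0.62 to about -0.52, and the 3 DMSO lines stay near 0.

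Of 10574 genes tested, 8152 changed (77.1%), 3770 up (35.7%) and 4382 down (41.4%). These shares are the background for the list counts as deposited. Direction also went with level. Of 5 groups of equal size by mean FPKM, the lowest had 45.3% raised and 20.5% lowered, and the highest 24.1% and 64.3%. Lists were not compared with genes of like level. A change of at least 1 log2 unit was passed by 1172 genes upward (11.1%) and 887 downward (8.39%). The groups did not overlap in 8366 genes (79.1%). Rises reached further than falls. At 2 log2 units or more there were 273 rises and 3 falls, and at 3 or more 95 rises and 0 falls. The median of all genes tested was -0.08. Upper-quartile scaling shifted it to 0.06, and no scaling reversed a named gene that passed. Under upper-quartile scaling 4420 of the 10574 genes rose and 3618 fell, which is the background for list counts under that scaling. Among the genes tested, 627 had no DMSO library at 1 FPKM, so they entered the test through crenolanib alone and could hardly fall.

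The 12 largest rises included the early response genes ARC, EGR1 and JUN and the chemokine genes CXCL8 and CXCL2. ARC, an early response gene best known from neurons, had 0.0209, 0.0246 and 0.0484 FPKM in the 3 DMSO libraries and 714, 725 and 700.4 FPKM with crenolanib. All treated libraries stood far above all DMSO libraries, and the rise of ARC was the largest of all genes tested (9.44 ± 0.05, adjusted p = 9.0e-14). CXCL8, the chemokine that draws neutrophils, had 6.53, 5.55 and 5.57 FPKM in DMSO and 1490, 1518 and 1452 FPKM with crenolanib (7.76 ± 0.06, adjusted p = 1.2e-12). EGR1, a zinc finger factor induced by growth signals, had 2.55, 2.72 and 2.29 FPKM in DMSO and 253.9, 240.4 and 271 FPKM with crenolanib (6.19 ± 0.07, adjusted p = 1.2e-11). The groups did not overlap for any of these genes. The others of the 12 largest rises were those of the small GTPases RASD1 (7.80) and RRAD (6.44), the survival gene BCL2A1 (6.10), CXCL2 (6.05), C12orf57 (5.88), the beta-globin gene HBB (5.83), the AP-1 subunit JUN (5.82), the growth arrest gene GADD45G (5.77) and G0S2, an inhibitor of fat breakdown (5.72). After GC adjustment these 12 rises ranged from 5.51 (BCL2A1) to 9.90 (ARC).

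The largest falls were about 2 log2 units. MYC, the transcription factor that drives growth, had 159.8, 157.9 and 155.0 FPKM in DMSO and 38.5, 33.7 and 32.3 FPKM with crenolanib (-2.15 ± 0.06, adjusted p = 7.2e-09, and -1.80 after GC adjustment). Every treated library was below every DMSO library by a wide margin. MYBBP1A, a nucleolar protein of ribosome assembly, had 57.8, 55.9 and 55.7 FPKM in DMSO and 14.8, 13.1 and 12.8 FPKM with crenolanib (-1.98 ± 0.06). ALDH18A1, which makes the precursor of proline, went from 46.6, 46.0 and 47.3 FPKM to 10.8, 13.02 and 10.1 FPKM (-1.96 ± 0.08). WDR4, part of a tRNA methyltransferase (-2.02 ± 0.16), and VARS1, which charges tRNA with valine (-1.94 ± 0.07), also serve translation. SIGLEC12, a gene of the SIGLEC family (-2.08 ± 0.14), TTLL12 (-1.995 ± 0.06), B3GNT7 (-1.97 ± 0.04), PPP1R27 (-1.97 ± 0.05), EPOP (-1.97 ± 0.11), SUSD3 (-1.96 ± 0.19) and NSMF (-1.95 ± 0.05) complete the 12.

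**Figure D2:**
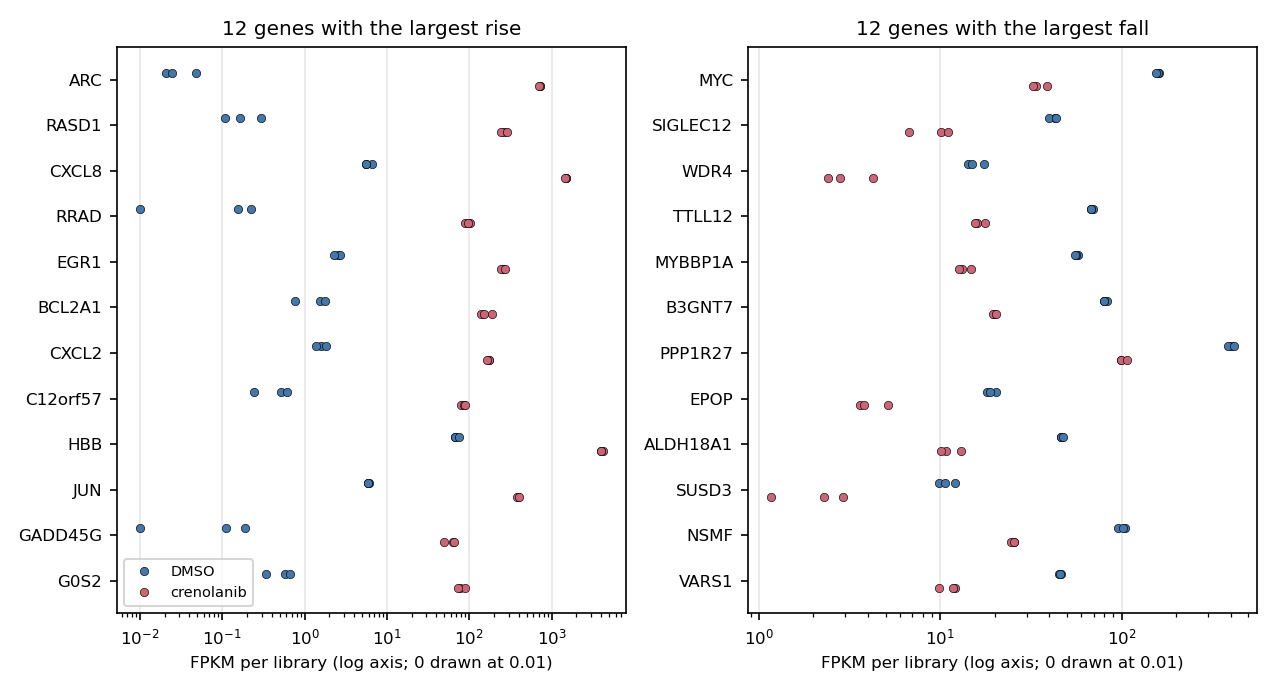
FPKM in each library (x axis, log scale, values of 0 drawn at 0.01) of the 12 genes with the largest rise and the 12 with the largest fall. Blue points are the 3 DMSO libraries and red points the 3 crenolanib libraries, and the groups do not overlap in any of the 24 genes. The rises span from HBB at 67 to 75 FPKM in DMSO to ARC below 0.1 FPKM.

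Promoters are shown for 4 of the named genes. Each was picked for holding more than a single match, or overlapping matches, to the motif of a factor downstream of growth or cytokine signals. Their matches were thus fixed by that choice and lend the results below no support. The sequences are the 250 bases before the RefSeq start (build GRCh38.p14), 5′ to 3′ on the gene's strand, with matches in capitals. EGR1 (chr5:138465229-138465478, plus strand) holds CArG boxes, the sites of serum response factor, at bases -105 to -96 and -83 to -74, and TTCNNNGAA, the STAT pattern, at -228 to -220. CXCL2 (chr4:74099196-74099445, minus strand) holds overlapping NF-kB matches at -78 to -69 and -77 to -68. DUSP8 (chr11:1572272-1572521, minus strand) holds the cyclic AMP response element TGACGTCA at -118 to -111 and -74 to -67. CISH (chr3:50611775-50612024, minus strand) holds TTCNNNGAA at 4 places between -241 and -104.
EGR1: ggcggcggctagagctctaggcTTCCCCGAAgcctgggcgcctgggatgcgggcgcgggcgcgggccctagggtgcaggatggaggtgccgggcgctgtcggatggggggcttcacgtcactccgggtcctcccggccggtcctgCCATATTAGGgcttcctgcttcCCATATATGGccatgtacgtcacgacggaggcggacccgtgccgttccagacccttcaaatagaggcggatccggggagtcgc
CXCL2: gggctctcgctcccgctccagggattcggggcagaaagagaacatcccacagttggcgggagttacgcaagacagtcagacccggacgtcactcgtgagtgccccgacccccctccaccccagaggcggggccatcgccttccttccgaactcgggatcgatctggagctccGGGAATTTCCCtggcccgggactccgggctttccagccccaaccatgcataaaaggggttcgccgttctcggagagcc
DUSP8: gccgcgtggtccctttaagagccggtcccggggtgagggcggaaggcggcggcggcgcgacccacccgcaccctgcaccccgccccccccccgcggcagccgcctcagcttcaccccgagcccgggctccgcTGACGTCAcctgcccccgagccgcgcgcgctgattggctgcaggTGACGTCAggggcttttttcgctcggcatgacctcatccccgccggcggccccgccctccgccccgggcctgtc
CISH: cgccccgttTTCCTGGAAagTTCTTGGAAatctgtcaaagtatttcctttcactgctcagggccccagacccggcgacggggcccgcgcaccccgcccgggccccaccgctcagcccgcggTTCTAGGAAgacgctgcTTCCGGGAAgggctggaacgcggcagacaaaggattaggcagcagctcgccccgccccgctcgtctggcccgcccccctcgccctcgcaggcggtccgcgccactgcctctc

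Motifs were searched on both strands in the same 250 bases of the 8630 tested genes with a promoter entry. The patterns were the CArG box, NF-kB, TGACGTCA, TGAGTCA (AP-1), the E-box CACGTG, the GATA patterns AGATAA and TGATAA, and TTCNNNGAA. CACGTG stood in 9.35% of all tested promoters, in 12.6% of the 706 whose genes fell by at least 1 log2 unit (95% Wilson interval 10.4 to 15.3%) and in 7.97% of the 929 whose genes rose that far (6.39 to 9.88%). TGATAA stood in 2.83% of all tested promoters, in 1.13% of the lowered (0.575 to 2.22%) and in 3.88% of the raised (2.81 to 5.32%). TGAGTCA stood in 2.48% of all and in 3.77% of the raised (2.72 to 5.19%). CArG boxes stood in 1.09% of all, 0.861% of the raised and 1.56% of the lowered. NF-kB matches stood in 6.19%, 6.67% and 6.37%, TGACGTCA in 3.01%, 3.88% and 2.83%, and TTCNNNGAA in 5.54%, 5.49% and 5.52%, in the same order. AGATAA stood in 4.37% of all, 5.92% of the raised and 3.12% of the lowered. The median GC content of these windows was 65.2% for all tested genes, 64.4% for the raised and 67.2% for the lowered. A match is a description of the letters and no evidence of binding, and these shares have no test.

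The target of the compound was not reduced at the RNA level. FLT3 had 94.4, 94.4 and 94.8 FPKM in DMSO and 134.6, 126.0 and 129.7 FPKM with crenolanib (0.46 ± 0.04, adjusted p = 6.0e-06). All treated libraries lay above all DMSO libraries, and after GC adjustment the rise was 0.13 (adjusted p = 0.0168). The related receptor KIT had 1.02, 1.01 and 0.845 FPKM in DMSO and 2.22, 2.26 and 2.21 FPKM with crenolanib (0.72 ± 0.09), and 0.35 after GC adjustment. The other known targets of crenolanib were near 0. PDGFRA was at or below 0.0625 FPKM and PDGFRB at or below 0.151 FPKM in all 6 libraries, and neither was tested. Among 20 tested receptor genes 11 rose and 7 fell (median 0.29 before and after GC adjustment), and the falls were 4 after GC adjustment or upper-quartile scaling. Of the 20, 2 had no DMSO library at 1 FPKM, and of the other 18, 9 rose and 7 fell. Among the 11 with a mean of at least 5 FPKM 4 rose and 6 fell, with a median of -0.11. IL6ST, the shared receptor chain of the interleukin-6 family, rose most, from 0.327, 0.428 and 0.451 FPKM to 4.29, 5.11 and 4.24 FPKM (1.98 ± 0.10, and 1.19 after GC adjustment). CSF2RB, the shared chain of the interleukin-3 and GM-CSF receptors, fell from 61.9, 67.9 and 64.9 FPKM to 35.5, 37.5 and 35.9 FPKM (-0.82 ± 0.05, and -0.43 after GC adjustment). IGF1R fell by 0.96 ± 0.10 on the log2 scale and TNFRSF1A by 0.86 ± 0.06, the latter at -0.42 after GC adjustment.

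Genes under STAT5 control moved both ways. CISH, a feedback inhibitor switched on by STAT5, had 11.95, 12.1 and 12.99 FPKM in DMSO and 3.34, 3.39 and 4.05 FPKM with crenolanib (-1.54 ± 0.09, adjusted p = 2.9e-07). CCND3, the D-type cyclin of G1, had 37.7, 37.3 and 35.4 FPKM in DMSO and 15.95, 15.01 and 14.95 FPKM with crenolanib (-1.21 ± 0.06, and -0.80 after GC adjustment). SOCS2 fell less (-0.41 ± 0.09). SOCS1, a feedback inhibitor of the same family as CISH, had 4.13, 4.90 and 4.83 FPKM in DMSO and 167, 154.5 and 169 FPKM with crenolanib (4.88 ± 0.07, adjusted p = 5.3e-11). So CISH and SOCS1 went opposite ways in every library, and both calls stood after GC adjustment (-1.09 and 5.33). The kinase gene PIM3 rose by 1.43 ± 0.07 and the inhibitors of differentiation ID1 and ID2 by 2.20 ± 0.14 and 1.12 ± 0.10. Of 15 tested genes of this list 7 rose and 4 fell, with a median of 0.00 as deposited and 0.32 after GC adjustment. PIM1, named after its values were seen because it is the best known STAT5 target of FLT3, had a mean of 41.4 FPKM in DMSO and 31.1 FPKM with crenolanib (-0.40 ± 0.05, adjusted p = 7.0e-05), and 0.005 after GC adjustment.

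Of 16 tested feedback and target genes of the MAPK cascade 8 rose and 8 fell. Among the lowered were genes known to be kept on by the ERK branch. DUSP4, a nuclear ERK phosphatase, had 25.1, 26.8 and 26.1 FPKM in DMSO and 7.94, 9.29 and 7.91 FPKM with crenolanib (-1.53 ± 0.07, adjusted p = 1.1e-07). SPRY2, an inhibitor of receptor signalling, had 8.24, 7.91 and 7.65 FPKM in DMSO and 2.81, 1.95 and 2.72 FPKM with crenolanib (-1.36 ± 0.11). DUSP7 fell (-1.07 ± 0.07, and -0.61 after GC adjustment), and DUSP6, named after its values were seen, fell by 0.85 on the log2 scale. The raised genes were led by DUSP8, a phosphatase for the stress kinases JNK and p38, with 0.0757, 0.134 and 0.161 FPKM in DMSO and 46.96, 40.1 and 44.5 FPKM with crenolanib (5.32 ± 0.09, adjusted p = 1.5e-10). DUSP16, also directed at JNK and p38, had 2.28, 2.38 and 2.41 FPKM in DMSO and 81.5, 84.8 and 78.8 FPKM with crenolanib (4.62 ± 0.06). The early response phosphatases DUSP1 (3.55 ± 0.12) and DUSP2 (3.12 ± 0.08) rose too. So did DUSP5, an ERK phosphatase also named after its values were seen (1.41, and 1.82 after GC adjustment). Genes tied to ERK thus did not all fall. The list's median was 0.48, and 0.75 after GC adjustment, beside -0.08 for all genes tested.

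FOXO targets and genes of PI3K and AKT feedback rose in 17 of 18 tested cases and fell in 0 (median 0.87). FOXO3 itself had 3.39, 3.32 and 3.02 FPKM in DMSO and 13.9, 13.99 and 12.7 FPKM with crenolanib (1.78 ± 0.08, adjusted p = 7.5e-08). GADD45A, a growth arrest gene, had 1.98, 2.14 and 2.56 FPKM in DMSO and 17.1, 16.5 and 16.7 FPKM with crenolanib (2.47 ± 0.09). TXNIP, which limits glucose uptake, rose from 98.1, 94.0 and 98.5 FPKM to 219, 224 and 226 FPKM (1.19 ± 0.04), and RICTOR, a subunit of the kinase complex that activates AKT, by 1.80 ± 0.09 (1.01 after GC adjustment). After GC adjustment 13 of the 18 rose and 0 fell, with a median of 0.50. The 17 of 18 compare with 35.7% raised over all genes, and 4 further members were below the filter.

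**Figure D3:**
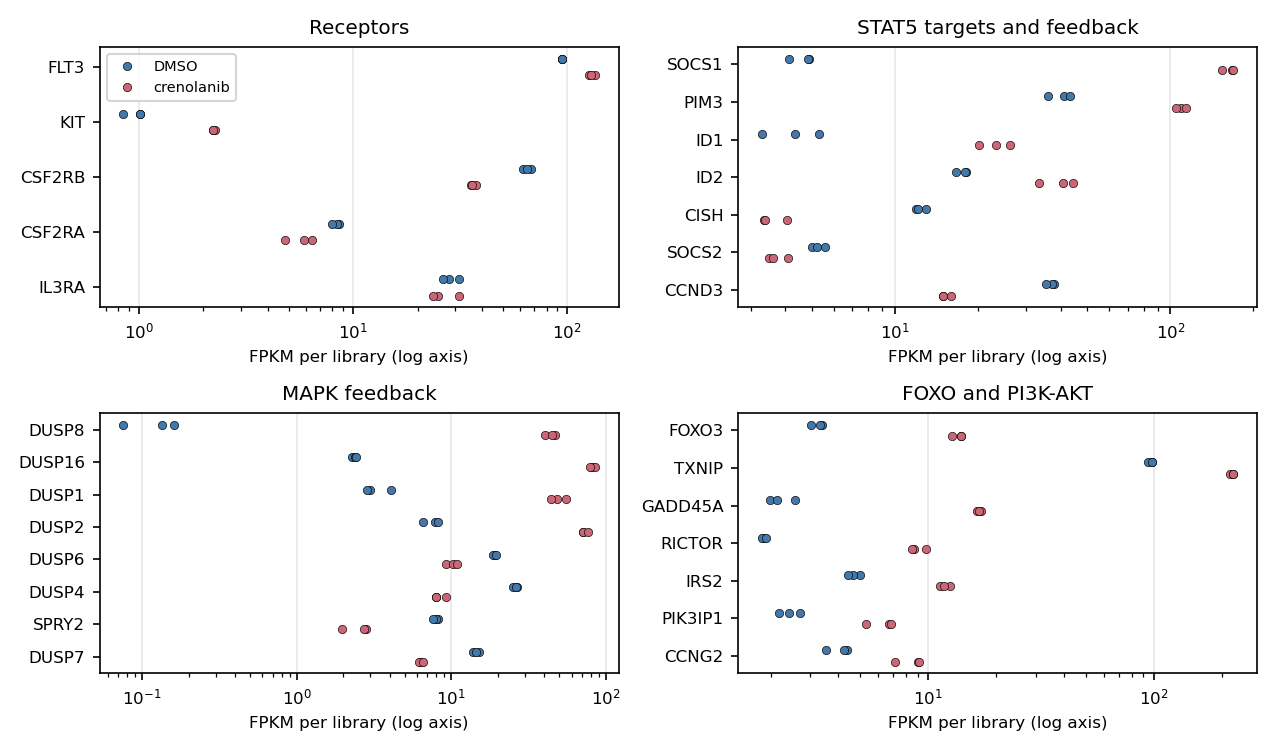
FPKM in each library (x axis, log scale) of receptor genes, STAT5 target and feedback genes, MAPK feedback genes and FOXO or PI3K-AKT genes. Blue points are the 3 DMSO libraries and red points the 3 crenolanib libraries. SOCS1 and CISH, and DUSP8 and DUSP4, move in opposite directions, and all 7 FOXO and PI3K-AKT genes drawn are higher with crenolanib.

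Early response genes, which cells switch on within minutes of a stimulus, were high at 48 h. Of 27 tested, 25 rose and 1 fell (median 2.27, and 2.72 after GC adjustment), and 5 of the 27 had no DMSO library at 1 FPKM. Their summed share of the FPKM went from 0.219 to 0.227% in the DMSO libraries to 1.23 to 1.25% with crenolanib. JUN, a subunit of AP-1, had 6.11, 5.90 and 5.86 FPKM in DMSO and 392.6, 379 and 400.2 FPKM with crenolanib (5.82 ± 0.04, adjusted p = 1.2e-12). IER3, an early response gene tied to survival, had 3.57, 3.17 and 2.9 FPKM in DMSO and 121, 124 and 131.5 FPKM with crenolanib (4.91 ± 0.07). The member that fell was SRF, the factor that binds the CArG box, from 35.1, 37.2 and 38.3 FPKM to 23.2, 24.9 and 21.9 FPKM (-0.64 ± 0.06, and -0.16 after GC adjustment).

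Several NF-kB genes rose far, while chemokine and cytokine genes were nearly even in number between rises and falls. NFKBIZ, an atypical inhibitor protein that also activates target genes, had 1.97, 2.11 and 1.61 FPKM in DMSO and 98.9, 105.4 and 103.5 FPKM with crenolanib (5.16 ± 0.07, adjusted p = 6.3e-11). NFKB1, the p50 subunit, rose by 2.87 ± 0.06, the adaptor TRAF1 by 2.69 ± 0.11 and the inhibitor NFKBIA by 2.26 ± 0.05. RELA, the p65 subunit, fell (-0.39 ± 0.05), as did NFKBIE (-0.50 ± 0.12) and TNIP2 (-0.41 ± 0.08), and none of these 3 falls passed after GC adjustment (0.04, -0.02 and 0.07). Of 17 tested NF-kB genes 11 rose and 4 fell (median 1.04, and 1.20 after GC adjustment). Among 19 chemokines and cytokines 9 rose and 8 fell (median 0.22, and -0.15 after GC adjustment). Of the 19, 3 had no DMSO library at 1 FPKM, 6 rose and 7 fell of the 15 that reached 1 FPKM in both groups, and the 9 with a mean of at least 5 FPKM had a median of -0.56. CXCL2 had 1.57, 1.37 and 1.82 FPKM in DMSO and 172, 174 and 163 FPKM with crenolanib. Its neighbours in function CXCL3 (4.25 ± 0.10) and CCL20 (3.40 ± 0.16) rose with it. TNF, a classical NF-kB target, fell from 17.4, 17.1 and 16.1 FPKM to 2.84, 6.42 and 4.39 FPKM (-1.74 ± 0.19), and the monocyte chemokine CCL2 fell by 1.51 ± 0.17 on the log2 scale and the interleukin-1 antagonist IL1RN by 1.27 ± 0.11. Interferon-stimulated genes had 13 of 21 raised and 4 lowered (median 0.71, and 0.43 after GC adjustment). Of the 21, 6 had no DMSO library at 1 FPKM, and the 10 with a mean of at least 5 FPKM had a median of -0.18. IFIT2 (1.85 ± 0.18) and ISG20 (1.70 ± 0.13) rose at low levels, while the abundant IFITM2 (-1.12 ± 0.07, and -0.73 after GC adjustment) and BST2 (-0.90 ± 0.05, and -0.47) fell.

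Genes of ribosome assembly fell widely. Of 40 tested ribosome biogenesis genes 36 fell and 2 rose, against 41.4% lowered over all genes, with a median of -1.01 and of -0.88 after GC adjustment. NHP2, a core protein of the RNA-modifying particles of the nucleolus, had 91.5, 103.6 and 111.5 FPKM in DMSO and 23.5, 30.3 and 28.8 FPKM with crenolanib (-1.86 ± 0.10, adjusted p = 1.9e-07). RRS1, needed for the large subunit, fell by 1.78 ± 0.15. The members that rose were WDR74 (2.08 ± 0.05) and DDX21 (0.39 ± 0.06), and DDX21 was at -0.10 after GC adjustment. The summed level of the 41 genes made up 0.561 ± 0.00412% of all FPKM in DMSO and 0.256 ± 0.00442% with crenolanib (SD, n = 3). Ribosomal protein genes differed in direction, and 18 of 36 rose and 7 fell, all by less than 1 log2 unit (median 0.16, and 0.36 after GC adjustment). RPS6 rose by 0.72 ± 0.04 (0.35 after GC adjustment) and RPL37 by 0.75 ± 0.07 (0.43), while RPS2 (-0.49 ± 0.05), RPS14 (-0.38 ± 0.05) and RPS15 (-0.36 ± 0.08) fell, of which RPS14 alone still fell after GC adjustment (-0.28, with RPS2 at -0.01 and RPS15 at 0.11). Ribosomal protein genes have many processed pseudogenes, so single values are uncertain. Among the partners of MYC, the antagonist MXD1 rose from 37.95, 40.4 and 37.8 FPKM to 105.8, 105.1 and 99.4 FPKM (1.40 ± 0.05), and MYCN fell (-0.84 ± 0.13, and -0.41 after GC adjustment). Of 11 genes of this network 3 rose and 7 fell (median -0.24). After GC adjustment 4 rose and 3 fell with a median of 0.11, and 3 fell under upper-quartile scaling.

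Nucleotide, amino acid and energy metabolism held further falls. Of 27 nucleotide and polyamine genes 16 fell and 2 rose, or 1 without DMSO library 3 (median -0.52, and -0.73 after GC adjustment). CAD, which opens pyrimidine synthesis, had 34.6, 36.8 and 38.5 FPKM in DMSO and 10.5, 11.1 and 9.87 FPKM with crenolanib (-1.71 ± 0.06, adjusted p = 3.1e-08). The purine enzyme PFAS (-1.60 ± 0.08) and the spermidine synthase SRM (-1.59 ± 0.05) fell with it, while SAT1, which marks polyamines for export, rose by 1.39 ± 0.05. Of 15 serine, one-carbon and proline genes 13 fell and 2 rose (median -0.91, and -0.70 after GC adjustment), with PYCR1, which makes proline, at -1.90 ± 0.10. The cystine transporter SLC7A11 went the other way, from 0.953, 1.04 and 1.01 FPKM to 19.6, 18.3 and 20.8 FPKM (3.36 ± 0.08). Of 20 glycolysis genes 15 fell and 5 rose (median -0.84, and -0.40 after GC adjustment). ENO1, an enolase, had 657.8, 597.7 and 623 FPKM in DMSO and 204.3, 202.4 and 204.6 FPKM with crenolanib (-1.61 ± 0.04, adjusted p = 3.5e-09). GPI fell by 1.47 ± 0.05, and PFKFB3, which makes an activator of glycolysis, rose by 0.76 ± 0.06 (1.16 after GC adjustment).

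Mitochondrial genes split by genome. All 13 protein genes encoded in the mitochondria rose (median 1.16, and 0.97 after GC adjustment), and these 13 genes also carried the shift in FPKM share given above. MT-ND3, a subunit of complex I, had 1008, 1185 and 1280 FPKM in DMSO and 3828, 3732 and 3685 FPKM with crenolanib (1.70 ± 0.08, and 1.13 after GC adjustment), and MT-CYB of complex III rose by 1.26 ± 0.05. Of 32 tested nuclear genes of the same respiratory complexes 24 fell and 1 rose (median -0.56, and -0.62 after GC adjustment), and 0 rose without DMSO library 1 or without crenolanib library 1. ATP5F1B, the catalytic subunit of ATP synthase, had 648.8, 643.6 and 657 FPKM in DMSO and 284, 293 and 297 FPKM with crenolanib (-1.16 ± 0.04, adjusted p = 9.8e-09). ATP5MC1 (-1.85 ± 0.12) and UQCRC1 (-1.29 ± 0.05, and -0.83 after GC adjustment) fell too. Of 22 mitochondrial ribosome genes 20 fell and 0 rose (median -0.99, and -0.74 after GC adjustment), with MRPS12 at -1.72 ± 0.07. With the mitochondrial genes left out of the total, these 3 medians were 1.29, -0.44 and -0.89.

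**Figure D4:**
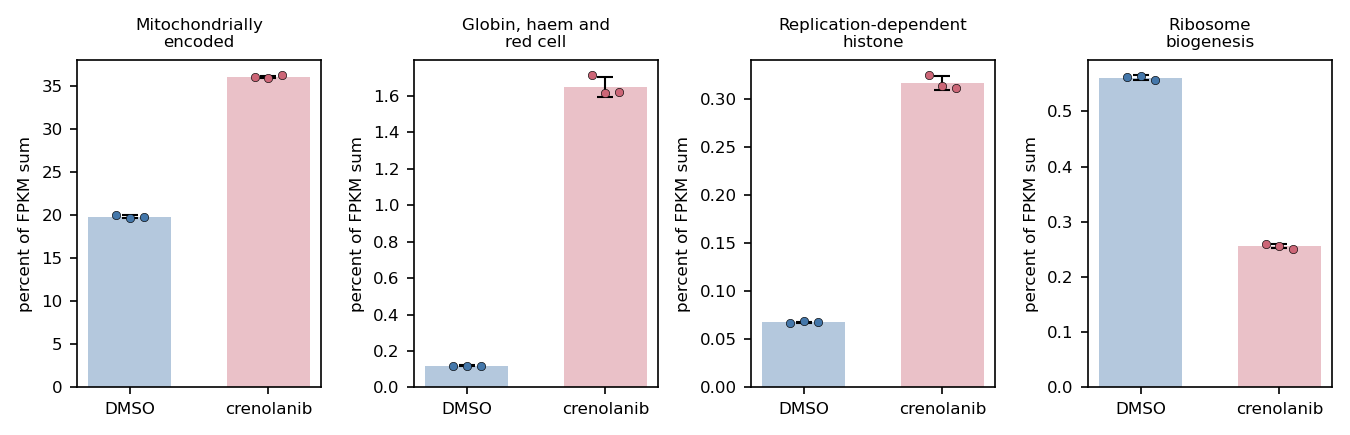
Summed FPKM of 4 gene lists as a percent of the FPKM sum of each library (y axis). Points are libraries, bars the mean of 3 and whiskers the SD. The mitochondrially encoded share goes from 19.8 to 36.0%, and the share of ribosome biogenesis genes from 0.561 to 0.256%.

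Inhibitors of the cell cycle were among the largest rises of their list, and replication genes fell widely. Of 19 G1 cyclins, kinases and inhibitors 11 rose and 5 fell (median 0.39, and 0.13 after GC adjustment). CDKN1A (p21), which inhibits cyclin-dependent kinases, had 4.47, 4.11 and 3.58 FPKM in DMSO and 42.9, 39.6 and 39.7 FPKM with crenolanib (3.05 ± 0.08, adjusted p = 2.9e-09). CDKN1C (p57) had 5.10, 5.67 and 5.58 FPKM in DMSO and 47.8, 48.2 and 42.3 FPKM with crenolanib (2.87 ± 0.07). CDK4 fell from 38.7, 38.4 and 41.1 FPKM to 10.9, 10.5 and 12.96 FPKM (-1.70 ± 0.08), and with it the phosphatase CDC25A (-1.31 ± 0.09) and cyclin E (CCNE1, -1.11 ± 0.12). Among 11 growth arrest genes 10 rose and 0 fell (median 1.498), or 1 fell without crenolanib library 1, and 5 of the 11 had no DMSO library at 1 FPKM. GADD45B had 17.6, 15.4 and 17.7 FPKM in DMSO and 686.6, 624 and 669.5 FPKM with crenolanib (5.21 ± 0.06). The replication machinery had 24 of 34 genes lowered and 2 raised (median -0.41 before and after GC adjustment). The raised were 0 without DMSO library 1 and 1 without DMSO library 2, DMSO library 3, crenolanib library 2 or crenolanib library 3. The helicase gene MCM2 had 77.4, 79.5 and 78.6 FPKM in DMSO and 27.7, 27.3 and 27.9 FPKM with crenolanib (-1.47 ± 0.04, adjusted p = 6.3e-09).

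Of 27 mitosis genes 11 rose and 12 fell, close to the shares of all genes, and 7 rose and 9 fell after GC adjustment. The sign of their median depends on the scaling (-0.05 as deposited, 0.03 to 0.10 under other scalings). CENPF (1.51 ± 0.09, and 0.99 after GC adjustment) and TOP2A (1.26 ± 0.07, and 0.62) rose and CDC20 fell (-1.22 ± 0.14, and -0.77). All 37 tested replication-dependent histone genes rose (median 2.61, and 2.77 after GC adjustment). Of the 37, 21 had no DMSO library at 1 FPKM, and 8 further members of the list were below the filter. H1-4, a linker histone, had 0.159, 0.375 and 0.276 FPKM in DMSO and 56.1, 57.6 and 51.8 FPKM with crenolanib (5.47 ± 0.09), and H4C3 rose by 4.66 ± 0.09. H2BC8 (3.77 ± 0.18) and H1-2 (3.71 ± 0.09) followed. Their messages normally end in a stem loop without a poly(A) tail, histone genes have near-identical copies, and the sources used here do not say how the RNA was selected. The summed histone share went from 0.0679 ± 0.000653% to 0.316 ± 0.00703% of the FPKM (SD, n = 3).

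Some genes of cell death changed by over 1 log2 unit. PMAIP1 (NOXA), a trigger of apoptosis, had 2.12, 1.96 and 1.86 FPKM in DMSO and 27.1, 30.6 and 29.3 FPKM with crenolanib (3.33 ± 0.08, adjusted p = 1.5e-09), and BBC3 (PUMA) rose by 1.31 ± 0.10. In the BCL2 family 4 of 12 rose and 4 fell, near the shares of all genes (median -0.11, and 0.11 after GC adjustment). BCL2A1, a survival member and classical NF-kB target, had 0.755, 1.56 and 1.75 FPKM in DMSO and 137.6, 187.6 and 150.6 FPKM with crenolanib (6.10 ± 0.17). The mitophagy receptor BNIP3L rose by 1.62 ± 0.06 (0.96 after GC adjustment), and the death genes BIK (-1.27 ± 0.13), BAK1 (-1.09 ± 0.12, and -0.63 after GC adjustment) and BID (-0.63 ± 0.05) fell.

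Many red cell genes rose. HBB had 68.0, 67.3 and 74.7 FPKM in DMSO and 4183, 3934 and 3962 FPKM with crenolanib (5.83 ± 0.05, adjusted p = 2.0e-12). AHSP, the chaperone of alpha globin, had 1.07, 0.4202 and 0.413 FPKM in DMSO and 83.7, 72.6 and 75.5 FPKM with crenolanib (5.60 ± 0.14). HBM (5.53 ± 0.10) and HEMGN, a nuclear protein of erythroid cells (5.19 ± 0.11), rose as far. Of 42 tested globin, haem and red cell genes 33 rose and 5 fell (median 1.90, and 2.08 after GC adjustment), and 22 of the 42 had no DMSO library at 1 FPKM. Of the other 20, 11 rose and 5 fell. The lowered genes included the haem synthesis enzymes CPOX (-0.77 ± 0.07) and UROS (-0.73 ± 0.08). The summed share of the 46 genes in the table was 0.115 to 0.12% of the FPKM in the DMSO libraries and 1.61 to 1.71% with crenolanib. Most of this sum with crenolanib was HBB, with 4183 of 5048 FPKM in crenolanib library 1, against 68.0 of 300.4 FPKM in DMSO library 1. No gene of this list was at 0 in all 6 libraries.

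Of the factors that direct red cell genes some rose and some fell. GATA1 had 0.483, 0.427 and 0.514 FPKM in DMSO and 4.74, 4.92 and 4.87 FPKM with crenolanib (1.99 ± 0.09), TAL1 rose by 2.43 ± 0.12 and KLF1 by 1.90 ± 0.16. Their partner LMO2 fell from 54.7, 53.3 and 56.0 FPKM to 29.1, 31.1 and 27.8 FPKM (-0.88 ± 0.05, and -0.48 after GC adjustment), as did NFE2 (-0.74 ± 0.05, and -0.36) and LDB1 (-0.38 ± 0.07, but 0.08 after GC adjustment). Of the platelet markers, ITGA2B rose (0.89 ± 0.14, and 1.36 after GC adjustment), PF4 was at 0 in all 6 libraries and ITGB3, GP9 and PPBP had means under 0.4 FPKM in both groups. Of 13 tested erythroid and megakaryocytic factors and markers 5 rose and 3 fell (median 0.21, and 0.50 after GC adjustment). Of the 13, 3 had no DMSO library at 1 FPKM, and of the other 10, 2 rose and 3 fell. After GC adjustment 9 of the 13 rose and 3 fell.

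Among granule genes 10 of 21 rose and 9 fell, with LCN2 (3.31 ± 0.11) and LTF (2.62 ± 0.11), proteins of secondary granules, at the upper end and PRTN3, proteinase 3 of primary granules, at the lower end. PRTN3 had 269, 242 and 255 FPKM in DMSO and 88.7, 82.9 and 81.4 FPKM with crenolanib (-1.59 ± 0.05, adjusted p = 1.3e-08). Of the 21 granule genes 3 had no DMSO library at 1 FPKM, and of the other 18, 7 rose and 9 fell. The balance depends on the processing, with 13 rises and 6 falls after GC adjustment (median -0.06, and 0.27 adjusted) and 4 falls under upper-quartile scaling. Of 21 monocyte and macrophage genes 10 rose and 9 fell (median 0.20, and 0.11 after GC adjustment). Among the 13 of these with a mean of at least 5 FPKM 4 rose and 7 fell, with a median of -0.24. The costimulatory receptor CD86 rose from 2.73, 2.72 and 2.87 FPKM to 14.7, 15.3 and 17.8 FPKM (2.16 ± 0.09) and CD36 by 1.60 ± 0.09 (1.05 after GC adjustment), while thrombomodulin (THBD, -1.55 ± 0.05) and IRF8 (-1.04 ± 0.04) fell. Of 16 myeloid transcription factors 9 fell and 6 rose (median -0.36, and -0.07 after GC adjustment). CEBPA, the factor of granulocyte fate, had 107.7, 114 and 117.9 FPKM in DMSO and 54.2, 57.0 and 54.7 FPKM with crenolanib (-1.02 ± 0.05, and -0.55 after GC adjustment), and ETS2 rose by 1.55 ± 0.05. In the programme driven by KMT2A fusions 9 of 21 genes rose and 4 fell (median 0.30, and 0.27 after GC adjustment), and 13 rose and 2 fell after GC adjustment. JMJD1C, a chromatin cofactor, rose by 2.16 ± 0.08, and MEN1, the menin that tethers the fusion to its targets, fell from 29.7, 29.5 and 27.8 FPKM to 10.6, 11.1 and 8.46 FPKM (-1.45 ± 0.09). MHC genes had 12 of 19 lowered and 3 raised (median -0.40), or 7 lowered and 5 raised after GC adjustment (median -0.07), with the immunoproteasome gene PSMB8 at -1.37 ± 0.09.

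Markers of the line were present in both groups. Of the 14 markers fixed for a myeloid leukaemia line 13 were tested, and CD34 had a mean of 0.0271 FPKM in DMSO and was at 0 in the 3 crenolanib libraries. PTPRC (CD45) had 5.05, 5.49 and 5.51 FPKM in DMSO and 26.6, 28.0 and 28.1 FPKM with crenolanib (2.17 ± 0.06), while CD33 (-1.04 ± 0.07) and SPI1 (-0.63 ± 0.05, and -0.16 after GC adjustment) fell. Of the 13 lymphoid markers measured, only 4 were tested, of which 1 rose and 2 fell. CD3D, CD3E, CD3G, CD2, MS4A1 and PAX5 had means under 0.4 FPKM in both groups, and NKG7 fell from 62.1, 59.8 and 60.8 FPKM to 26.5, 23.3 and 34.7 FPKM (-0.65 on the log2 scale after GC adjustment). Of 15 stromal, endothelial and epithelial markers 3 were tested, and EPCAM and KRT19 were at 0 in all 6 libraries. PECAM1 rose by 1.01 ± 0.07, and KRT18 fell by 0.44 on the log2 scale (-0.02 after GC adjustment, where it no longer passed). The summed share of lymphoid markers was 0.0256% of the FPKM in DMSO and 0.0116% with crenolanib, and that of stromal, endothelial and epithelial markers 0.00663% and 0.0104%.

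The title of the study names GRP78, ATF6 and CHOP of the response to unfolded proteins. HSPA5 (GRP78), the main chaperone of the endoplasmic reticulum, had 87.1, 82.0 and 77.8 FPKM in DMSO and 61.1, 63.6 and 62.4 FPKM with crenolanib (-0.39 ± 0.05, adjusted p = 7.0e-05, and -0.48 after GC adjustment). ATF6, a sensor of unfolded proteins, had 4.29, 4.53 and 4.19 FPKM in DMSO and 6.88, 6.06 and 6.70 FPKM with crenolanib (0.50 ± 0.08), which ended as a call after GC adjustment (0.02, adjusted p = 0.817) and in the fit with all 12 libraries (adjusted p = 0.125). DDIT3 (CHOP), a factor of prolonged stress, had 1.77, 1.97 and 2.995 FPKM in DMSO and 1.14, 6.44 and 2.28 FPKM with crenolanib, and these overlapping libraries gave 0.22 ± 0.38 (adjusted p = 0.601, and 0.37 after GC adjustment). XBP1 fell from 63.1, 60.1 and 57.8 FPKM to 31.6, 28.9 and 33.4 FPKM (-0.93 ± 0.06), and ATF4 rose from 86.7, 86.3 and 89.3 FPKM to 146.9, 135.3 and 139.9 FPKM (0.68 ± 0.04, and 1.10 after GC adjustment). Of 26 chaperones and sensors 15 fell and 7 rose (median -0.32, and -0.27 after GC adjustment), with CALR at -1.39 ± 0.06 and DNAJC3 at 1.34 ± 0.06 (0.74 after GC adjustment). The summed share of the 28 genes of this list went from 0.568 ± 0.0221% to 0.291 ± 0.00352% of the FPKM (SD, n = 3). Of 18 integrated stress response genes 9 fell and 4 rose (median -0.27, and -0.05 after GC adjustment), with TRIB3 at -1.42 ± 0.25 (-0.95 after GC adjustment).

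CERT1, the ceramide transfer protein named in the title, had 1.58, 1.66 and 1.57 FPKM in DMSO and 4.44, 4.40 and 4.76 FPKM with crenolanib (1.09 ± 0.09, adjusted p = 2.9e-06, and 0.59 after GC adjustment). Of 31 tested sphingolipid genes 13 rose and 15 fell, close to the background of all genes. The ceramidase ASAH1 rose (0.90 ± 0.06, and 0.49 after GC adjustment) and the sphingosine kinase SPHK2 fell (-1.29 ± 0.13, and -0.81). Heat shock chaperones of the cytosol and mitochondria had 12 of 21 lowered and 4 raised, or 7 raised under upper-quartile scaling (median -0.33, and -0.48 after GC adjustment). HSPA8, the constitutive HSP70, had 655, 608.8 and 603 FPKM in DMSO and 232.7, 246.7 and 242 FPKM with crenolanib (-1.37 ± 0.04), whereas the inducible HSPA1B rose by 1.24 ± 0.06. HSPA1A and HSPA1B are near-identical copies, so their split is uncertain. In the proteasome 18 of 27 genes fell and 4 rose, or 8 rose under upper-quartile scaling (median -0.55, and -0.43 after GC adjustment), with PSMB5 at -1.13 ± 0.06.

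Of 22 cholesterol genes 12 rose and 6 fell (median 0.24, and 0.46 after GC adjustment). MSMO1, a demethylase of sterol synthesis, had 8.14, 5.81 and 6.20 FPKM in DMSO and 43.2, 46.0 and 44.4 FPKM with crenolanib (2.57 ± 0.10). The haem-degrading enzyme HMOX1 had 10.9, 10.8 and 10.7 FPKM in DMSO and 144.4, 134.4 and 132.2 FPKM with crenolanib (3.55 ± 0.05, adjusted p = 5.3e-11). NFE2L2 (NRF2) rose by 1.89 ± 0.09 and the repressor gene BACH1 by 1.88 ± 0.10 (1.20 after GC adjustment). The pentose phosphate enzyme TKT (-1.18 ± 0.04, and -0.73 after GC adjustment) and the peroxiredoxin PRDX1 (-1.25 ± 0.05) fell. This list of 18 held 8 rises and 8 falls, or 5 falls under upper-quartile scaling. Of 30 lysosome and autophagy genes 9 rose and 12 fell, near the shares of all genes, and 14 rose and 9 fell after GC adjustment, with the autophagosome protein gene MAP1LC3B at 1.51 ± 0.07 and ATG2A at -0.92 ± 0.09 (-0.44 after GC adjustment).

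**Figure D5:**
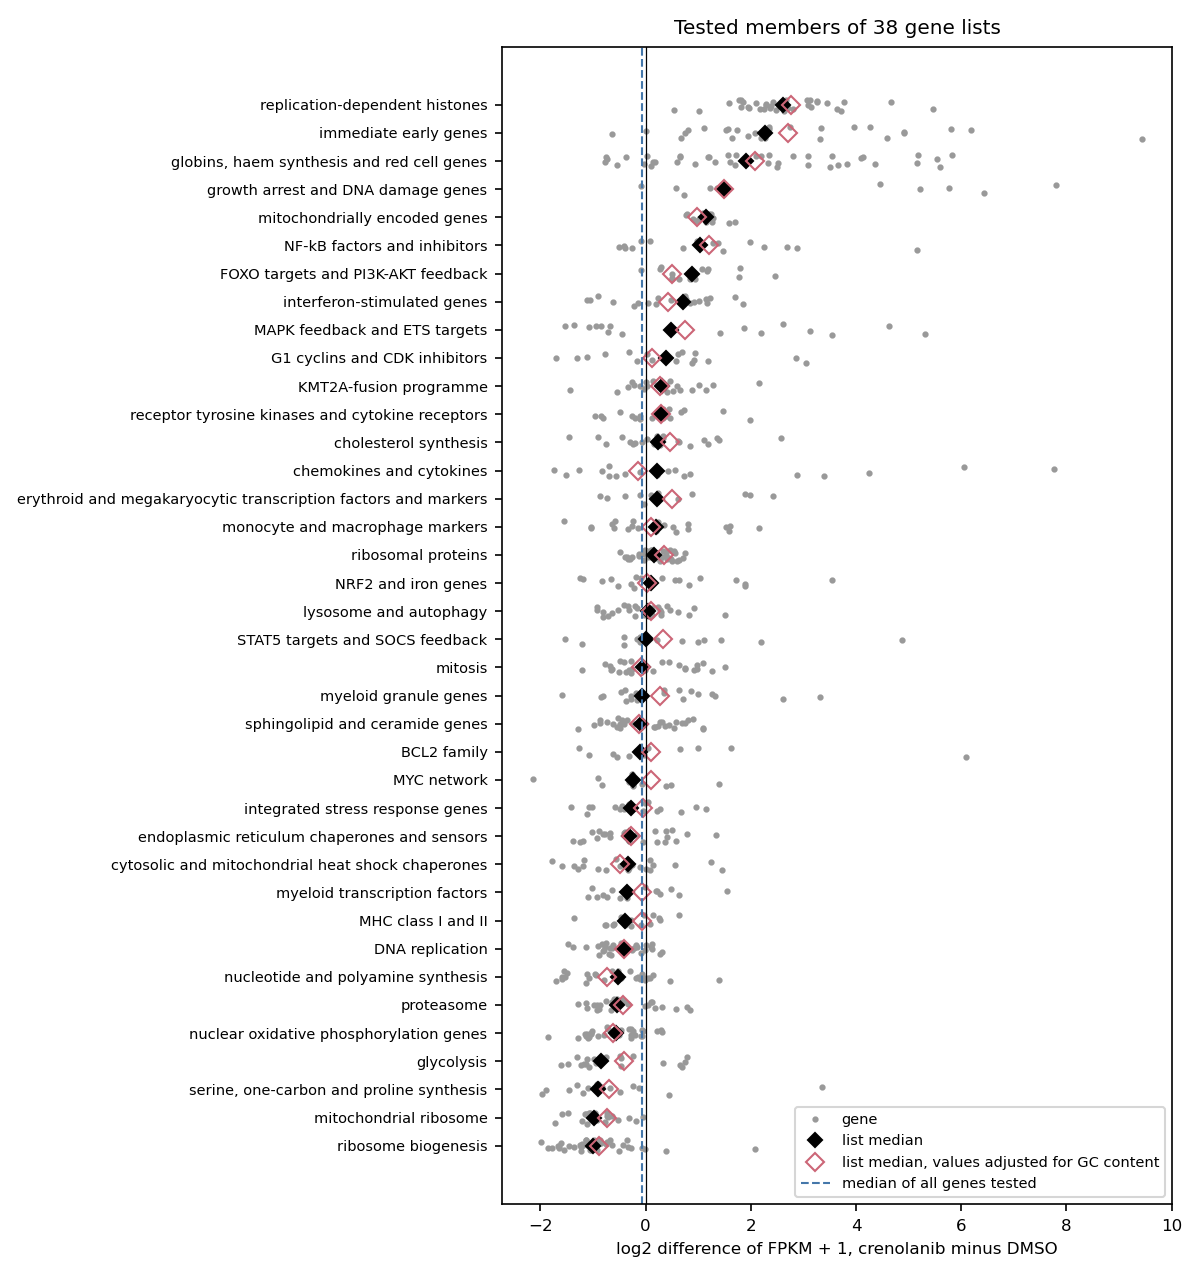
Log2 difference of FPKM + 1, crenolanib minus DMSO (x axis), of each tested member (grey points) of 38 gene lists, ordered by median. Black diamonds are list medians as deposited, red open diamonds those after GC adjustment, and the dashed line is the median of all genes tested (-0.08). Histones, early response and red cell genes lie at the upper end, and ribosome biogenesis, mitochondrial ribosome and serine and proline genes at the lower end, with either kind of value.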

How the data were processed

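RNA sequencing values were deposited by the authors as FPKM per gene, per the file headers, for 20036 genes and 12 libraries. The aligner, counter and genome build were "not given in the sources used here". Because the table holds FPKM and no counts, limma 3.58.1 (R 4.3.3) with a mean-variance trend was fitted on log2(FPKM + 1) to the 6 libraries, which understates changes of low genes. The test took genes that reached 1 FPKM in 3 or more libraries, with Benjamini-Hochberg adjustment over all 10574 and a threshold of 0.05. Depth was estimated from low FPKM values as whole reads (tolerance 0.01 read, values under 20 reads, lengths from GENCODE 29). By these lengths 33.5 to 39.6% of such values were whole, so no counts were recovered and depth is approximate. On simulated data, 100 genes were changed by 1 log2 unit and 100 by 0.5. Of these 83% and 48% were called, and 4 of 10374 unchanged genes. Far fewer genes were changed there than were called in the data, so these rates do not carry over to this comparison. Members and lists were chosen with earlier results of these data known. The GC adjustment (loess within each library) and the rescaling without mitochondrial, globin and histone genes were chosen after seeing the data.

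Named genes were the 12 largest rises and falls among called genes whose mean reached 5 FPKM and whose groups did not overlap. Added were the target and stress genes of the study and up to 4 raised and 3 lowered called members of each of 42 lists. So were up to 5 genes listed at 0 in a group. The last were the 5 with the largest spread under crenolanib among tested genes whose mean reached 5 FPKM. Marker genes of other cell types were fixed as lists. The alternatives were other pseudocounts, filters, scalings, fits, a replicate block and each library left out. Results for some genes are not reported here.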

Additional observations from a re-analysis of the deposited data

How the results depend on the processing

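Across 22 alternatives, 5741 of 5847 values of the named genes reported kept their side of the threshold, with no change of sign where called. Another 78 lost the call with the same sign, 6 gained it and 22 changed sign, with or without a call under the alternative. Only the GC adjustment, with and without the replicate block, reversed named genes. It gave 0.073 for TNIP2, 0.042 for RELA, -0.10 for DDX21, 0.11 for RPS15, -0.10 for COX6C, -0.26 for PRIM1, 0.082 for LDB1, 0.22 for DOT1L, -0.008 for HSP90AA1, -0.084 for PSMC2 and -0.22 for PSMA3. Without the block, only PRIM1, DOT1L and PSMA3 of these passed with the new sign, and the others lost the call. The GC adjustment left 1217 genes changed by at least 1 log2 unit, 394 of them lowered. A mean of at least 5 FPKM left 6439 genes tested, 5332 called, 1987 raised, 637 raised by at least 1 log2 unit and a median of -0.232. The median was 0.034 with no filter, 0.03 rescaled without mitochondrial genes, and 0.061 with upper quartiles or without mitochondrial, globin and histone genes, where 565 genes fell by at least 1 log2 unit in both. Among promoters of genes raised by at least 2 log2 units, TGACGTCA stood in 6.57% and NF-kB matches in 9.39%. The cause was not tested for any of these. The fit of all 12 libraries called 6170 genes.

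With 1 library left out, 7570 to 8126 genes were called (3488 to 3748 raised, 4059 to 4385 lowered), 2029 to 2115 by at least 1 log2 unit (1150 to 1206 raised, 875 to 909 lowered), 46.0 to 46.8% of calls were raised, the median was -0.082 to -0.07, 20 to 23 lists had a positive median and the mitochondrial share differed by 16.12 to 16.33 points. Same-numbered libraries did not deviate together across genes (correlations -0.0282, -0.024 and 0.00564). This cannot show whether they were cultured or prepared in matched sets, which the labels do not say. The replicate block called 8060 genes, and 7019 with the GC adjustment. On simulated data with few changed genes, differences of 0.5 log2 units were often missed.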

Other observations

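Several genes were listed at 0 in all 3 DMSO libraries and present with crenolanib. In all, 9 genes were at 0 in DMSO and at 1 FPKM or more in every crenolanib library, and 0 genes the reverse. MMP10, a matrix metalloproteinase gene, had 5.14, 3.01 and 4.64 FPKM with crenolanib, ODF4 5.73, 3.40 and 3.24 FPKM, RTP5 3.93, 2.07 and 2.98 FPKM and the histone gene H3C8 9.62, 4.94 and 2.61 FPKM. AVP, which encodes vasopressin, had 2.73, 6.80 and 0.161 FPKM and was not tested.

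The crenolanib libraries varied more than the DMSO libraries in 71% of genes tested. The genes with the widest spread among them were H3C2 with 15.2, 4.02 and 14.02 FPKM, H2AC15 with 9.42, 27.4 and 24.7 FPKM, NUDT17 with 4.56, 9.04 and 13.9 FPKM, C6orf136 with 2.06, 7.30 and 4.84 FPKM and LAIR2 with 7.33, 3.75 and 2.38 FPKM.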
